A study of Mus musculus with 100 samples.

Results

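The AP-1 transcription factors analysed here were the 8 genes Fos, Fosb, Fosl1, Fosl2, Jun, Junb, Jund and Atf3, chosen by name from the 25965 genes of the expression table, and all 8 were tested in every comparison. RNA-seq covered 18 libraries, 3 biological replicates in each of 6 groups. Female MEFs are fibroblasts of a mid-gestation F1 embryo with an i4F-BL6 mother and a CAST/EiJ father, grown in medium with fetal bovine serum. The mother carries a doxycycline-inducible Oct4, Sox2, Klf4 and c-Myc cassette with its rtTA activator in a C57BL/6J background. The paper describes MEFs from 1 female embryo, so the 3 MEF libraries do not stand for different embryos. F KSR2 and F KSR4 (female) and M KSR3 and M KSR5 (male) are KSR-iPSC lines reprogrammed with doxycycline from such MEFs in medium with Knockout Serum Replacement and LIF, then kept without doxycycline, so they carry the same cassette. TX 2i ESCs are the female embryonic stem cell line TX1072, also from a BL6 mother and a CAST father. They were grown in medium with fetal bovine serum, LIF and the 2i inhibitors of MEK and GSK3, whereas the KSR medium was serum-free. Each KSR-iPSC line is 1 picked colony and lines of a sex share a donor embryo. Per the paper, picked colonies were plated on feeder cells, and it does not mention feeders for TX 2i ESCs. Cell line, medium and any feeder cells cannot be told apart between KSR-iPSCs and TX 2i ESCs. The same holds for sex and embryo between female and male lines, and RNA-seq did not cover male MEFs.

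AP-1 is a dimer of basic leucine zipper (bZIP) proteins. Fos family proteins bind DNA only together with a Jun partner, whereas Jun proteins also pair with each other and Atf3 pairs with itself or with Jun proteins. The dimers read a short element of the promoters and enhancers of genes for growth, matrix remodelling and stress. In fibroblasts, serum and growth factors induce Fos, Fosb, Jun, Junb and Atf3 within minutes through MAP kinases, Fosl1 and Fosl2 follow, and Jund is present in resting cells too. AP-1 is also known as a factor that keeps fibroblast enhancers active and as a barrier to reprogramming.

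The members differ in the sequence in front of their start sites. RefSeq promoters (GRCm38.p6) were matched for 7 of the 8 members, all but Fosl1, and only the 250 bases before the start were searched, on both strands, for the AP-1 element TGACTCA, the CRE element TGACGTCA, its left part TGACGT (which the full CRE also holds), the variants TGACATCA and TTACCTCA known from Jun, the TATA box TATAAA and the serum response factor element called the CArG box. Of 32851 promoter windows of this length in the table, 4.46% held TGACTCA, 1.55% TGACGTCA, 6.47% TGACGT, 2.93% TGACATCA, 0.728% TTACCTCA, 12.4% TATAAA and 1.47% a CArG box. Of the 7 members, 3 held AP-1 or CRE type elements: Fos had TGACGT from base 66 to base 61 before the start, Jun had TTACCTCA from base 164 to base 157 and TGACATCA from base 45 to base 38, and Atf3 had TGACGT on the opposite strand from base 8 to base 3. The variants found in Jun were searched because they are known from this gene, so its matches were set beforehand. The share of all windows with any of these elements was not determined. TATAAA was found only in Fos, from base 33 to base 28, and the CArG box in none of the 7, which says only that these letters do not occur in this window.

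The promoters of these 3 genes are shown for their AP-1 and CRE type elements, in capitals, and those of Fosl2 and Jund, which held none of them, because Fosl2 had the largest and Jund the opposite difference between fibroblasts and pluripotent cells. Fos lies at chr12:85473640-85473889 on the plus strand, Jun at chr4:95052223-95052472 and Atf3 at chr1:191183334-191183583 on the minus strand, Fosl2 at chr5:32136222-32136471 and Jund at chr8:70697489-70697738 on the plus strand, each written 5′ to 3′. The windows end just before the RefSeq start. The outermost start in GENCODE M21 is the same for Fos and Jun, but lies 1210 bases downstream for Jund, 671 bases upstream for Fosl2 and 34706 bases upstream for Atf3.
Fos: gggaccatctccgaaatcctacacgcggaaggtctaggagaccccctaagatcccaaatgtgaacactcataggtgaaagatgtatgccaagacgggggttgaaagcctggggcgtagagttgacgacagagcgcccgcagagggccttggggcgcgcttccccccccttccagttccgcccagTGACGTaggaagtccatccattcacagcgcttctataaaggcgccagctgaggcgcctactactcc
Jun: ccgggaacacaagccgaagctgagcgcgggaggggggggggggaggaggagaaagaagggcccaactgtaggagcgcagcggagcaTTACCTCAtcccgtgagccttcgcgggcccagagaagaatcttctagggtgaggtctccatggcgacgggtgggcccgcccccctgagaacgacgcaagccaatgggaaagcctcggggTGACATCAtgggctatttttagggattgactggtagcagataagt
Atf3: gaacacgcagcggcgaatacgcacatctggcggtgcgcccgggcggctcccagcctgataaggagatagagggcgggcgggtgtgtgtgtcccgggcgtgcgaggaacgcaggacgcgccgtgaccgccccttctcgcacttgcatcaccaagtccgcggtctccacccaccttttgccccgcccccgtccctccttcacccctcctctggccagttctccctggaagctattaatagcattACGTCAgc
Fosl2: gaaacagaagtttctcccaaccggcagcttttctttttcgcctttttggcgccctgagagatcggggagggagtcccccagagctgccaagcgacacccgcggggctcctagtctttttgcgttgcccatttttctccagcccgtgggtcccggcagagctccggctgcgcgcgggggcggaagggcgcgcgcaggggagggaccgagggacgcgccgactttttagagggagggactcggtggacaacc
Jund: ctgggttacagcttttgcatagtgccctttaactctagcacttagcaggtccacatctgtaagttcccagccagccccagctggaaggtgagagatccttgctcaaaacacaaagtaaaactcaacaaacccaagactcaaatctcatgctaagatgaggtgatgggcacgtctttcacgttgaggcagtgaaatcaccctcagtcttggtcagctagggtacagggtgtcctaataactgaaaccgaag

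Values are log2 RPM (the reads of a gene scaled to a common total of reads on genes), a scale without correction for gene length. Between 13183036 and 17921280 reads fell on genes per library, a single read stands at -4.29 to -3.89, and for a gene with 0 reads the table holds a value equal to 0.9 read. All 10 pluripotency markers checked, such as Pou5f1, rose in the pluripotent groups. All 15 fibroblast markers, such as Col3a1, and 4 of 4 blood and macrophage markers, such as Lyz2, fell. The blood and macrophage markers summed to 170 to 217 RPM in MEFs and to 4.77 to 28.9 RPM in the other libraries, and their part in the AP-1 levels was not tested. Of 4 endothelial markers 2 rose and 1 fell, and of 8 markers of early differentiated cells 6 rose. Against the MEF mean, the median fibroblast marker stood at 0.0246 to 0.249% in 14 of the 15 pluripotent libraries and at 0.615% in M KSR5 replicate 3. In bulk RNA, fewer cells of a type and less RNA per cell cannot be told apart. P-values measure the spread between the replicates of each line or culture. In the comparison of the sexes, that spread also holds the difference between the 2 lines of a sex. The 6 libraries of a sex count there as separate, although they come from 2 lines. For the AP-1 and immediate early genes, MEF replicate 1 and M KSR5 replicate 3 stood apart from their replicates, and F KSR4 replicate 2 lay farthest from its line over all genes, so the results that change without these 3 libraries are given with and without them.

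Averaged over the 5 pluripotent groups, 5 of the 8 members were lower than in female MEFs and 1 was higher, while Fos and Atf3 did not pass the threshold of an adjusted p of 0.05. The background was large, because 32.5% of the 14632 genes tested were called lower and 42.1% higher. The median difference of the 8 members was -2.08 on the log2 scale, against 0.21 for all genes tested. Fosl2, Fosl1 and Jun were the 3 members whose 15 pluripotent libraries all lay below the 3 MEF libraries, and 49.7% of all genes tested did not overlap between these libraries in either direction.

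**Figure D1:**
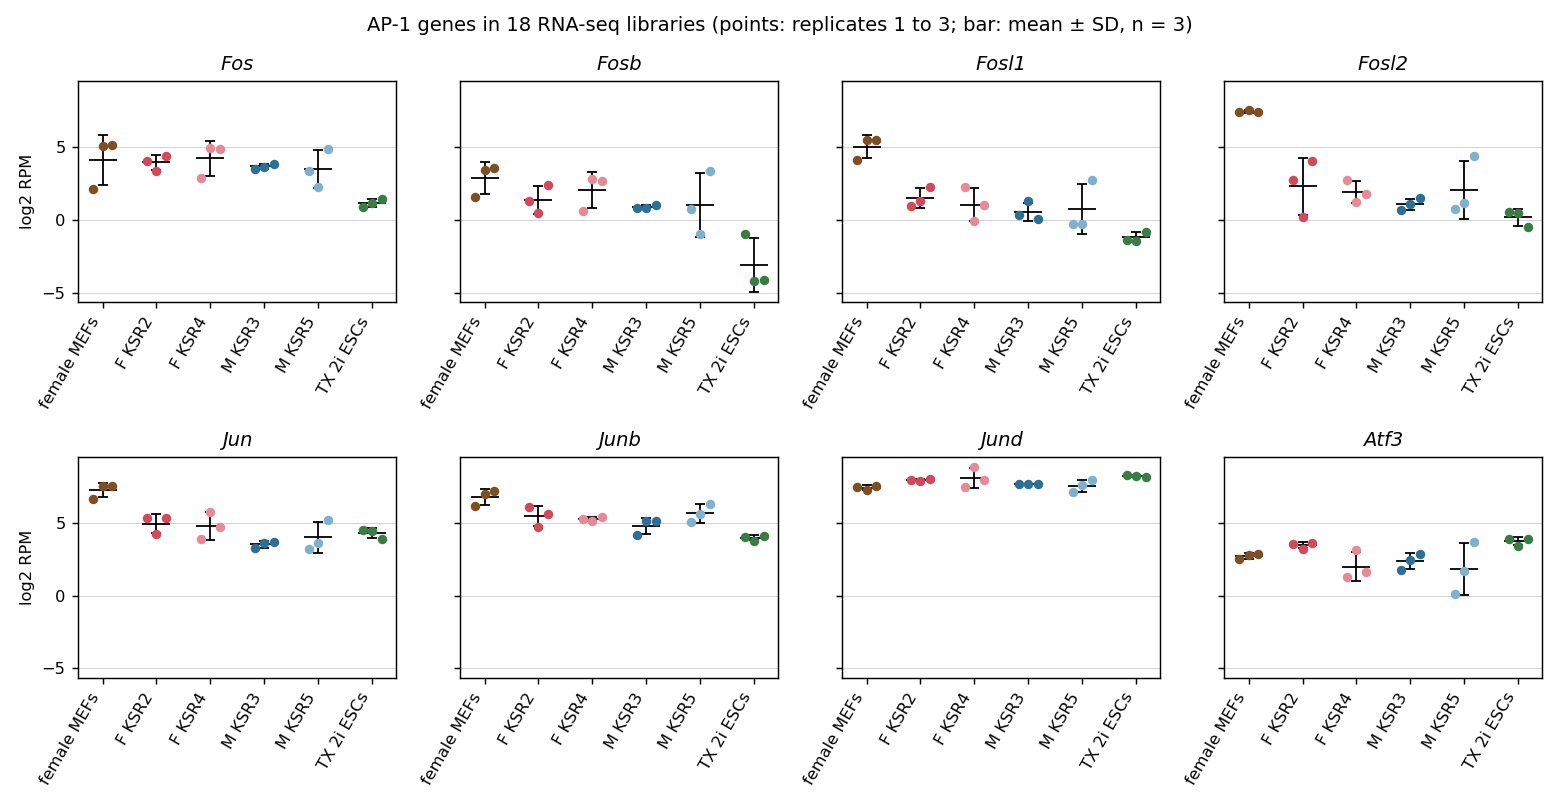
Level of each AP-1 gene in log2 RPM (y axis) in the 6 groups (x axis). Points are replicates 1 to 3 from left to right and bars the mean ± SD (n = 3). Fosl2, Fosl1 and Jun lay highest in all 3 MEF libraries, Fos and Fosb had their lowest group means in TX 2i ESCs, and Jund lay between 7.13 and 8.86 in every library.

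Among the Fos family, Fosl2 (Fra-2), at 5:32136472-32157831 on GRCm38 per the table, encodes a late-induced Fos protein and had the largest difference. It stood at 7.40, 7.56 and 7.38 in MEFs. F KSR2 had 2.72, 0.17 and 4.03, F KSR4 had 2.75, 1.25 and 1.78, M KSR3 had 0.70, 1.07 and 1.47, M KSR5 had 0.73, 1.13 and 4.37, and TX 2i ESCs had 0.54, 0.48 and -0.51. The MEF libraries lay close together, with an SD of 0.10, whereas the libraries of F KSR2 spread widely, with replicate 2 far below the others, and M KSR5 replicate 3 lay far above its replicates. The difference was -5.93 ± 0.67 (SE; adjusted p = 3.57e-07), a 61.1-fold lower level.

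Fosl1 (Fra-1), at 19:5447703-5455945, encodes a Fos protein without a strong activation domain that AP-1 itself induces. It stood at 4.12, 5.47 and 5.49 in MEFs. In the KSR-iPSC lines it lay between -0.27 and 2.77, or 15 to 118 reads, and in TX 2i ESCs at -1.35, -1.42 and -0.80. No pluripotent library reached the lowest MEF library. The difference was -4.48 ± 0.57 (SE; adjusted p = 1.74e-06). Exons of Fosl1 and of Ccdc85b on the opposite strand overlap by up to 1055 bases, and the authors counted by strand.

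Fos, at 12:85473890-85477273, is the prototype immediate early gene. It stood at 2.14, 5.06 and 5.17 in MEFs, so replicate 1 lay far below the other two. F KSR2 had 4.07, 3.36 and 4.41, F KSR4 had 2.85, 4.97 and 4.86, M KSR3 had 3.48, 3.67 and 3.87, and M KSR5 had 3.35, 2.29 and 4.88, all within the range of the MEF libraries. TX 2i ESCs, at 0.89, 1.17 and 1.42, lay below all other libraries. The difference of the 5 groups from MEFs was -0.82 ± 0.57 (SE; adjusted p = 0.201). Without MEF replicate 1 it was -1.81 (adjusted p = 0.00471), and without replicate 2 or 3 it was -0.35 (adjusted p = 0.647) or -0.30 (adjusted p = 0.693), so whether Fos passed depended on the MEF libraries used.

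Fosb, at 7:19302721-19310045, encodes another early induced Fos protein. It stood at 1.58, 3.42 and 3.58 in MEFs, again lowest in replicate 1. KSR-iPSC libraries ranged from -0.99 to 3.39, with a median of 0.92, and overlapped the MEFs. In TX 2i ESCs only 9, 1 and 0 reads were found in the 3 libraries. The difference of the pluripotent groups from MEFs was -2.41 ± 0.78 (SE; adjusted p = 0.00999). It missed the threshold without MEF replicate 2 (-2.13, adjusted p = 0.051) and without MEF replicate 3 (-2.05, adjusted p = 0.0576).

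Among the Jun family, Jun, at 4:95049034-95052222, encodes the main partner of Fos proteins. It stood at 6.67, 7.54 and 7.52 in MEFs. F KSR2 had 5.33, 4.20 and 5.33, F KSR4 had 3.89, 5.75 and 4.72, M KSR3 had 3.25, 3.58 and 3.71, M KSR5 had 3.21, 3.60 and 5.20, and TX 2i ESCs had 4.52, 4.46 and 3.91. All 15 lay below the lowest MEF library, and KSR-iPSCs and TX 2i ESCs overlapped. The difference was -2.93 ± 0.38 (SE; adjusted p = 1.81e-06), a 7.62-fold lower level.

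Junb, at 8:84976909-84978748, encodes a Jun protein that can act as activator or as antagonist of Jun. It stood at 6.18, 6.99 and 7.19 in MEFs. KSR-iPSC libraries lay between 4.14 and 6.31 and TX 2i ESCs at 4.03, 3.79 and 4.10. Only M KSR5 replicate 3 exceeded the lowest MEF library. The difference was -1.75 ± 0.28 (SE; adjusted p = 2.63e-05).

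Jund, at 8:70697739-70700616, encodes the Jun protein that is the least inducible of the family. It stood at 7.47, 7.25 and 7.54 in MEFs. F KSR2 had 7.93, 7.86 and 8.02, F KSR4 had 7.47, 8.86 and 7.96, M KSR3 had 7.66, 7.69 and 7.65, M KSR5 had 7.13, 7.58 and 7.94, and TX 2i ESCs had 8.31, 8.25 and 8.18. F KSR2, M KSR3 and TX 2i ESCs lay above all MEF libraries. The difference was 0.48 ± 0.20 (SE; adjusted p = 0.0371), of which 0.21 is the shift of the median gene. After centring every library on the median gene it was 0.22 (adjusted p = 0.373), and it also missed the threshold when any 1 MEF library was left out. Centring moved the 5 falling members further down, to -2.01 for Junb and -6.19 for Fosl2, and took Atf3 from -0.06 to -0.32.

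Atf3, at 1:191170296-191183340, encodes a stress-induced bZIP protein that represses many targets as a homodimer. It stood at 2.51, 2.82 and 2.89 in MEFs. F KSR2 had 3.57, 3.21 and 3.59, F KSR4 had 1.28, 3.11 and 1.60, M KSR3 had 1.75, 2.47 and 2.85, M KSR5 had 0.14, 1.68 and 3.68, and TX 2i ESCs had 3.92, 3.40 and 3.86. F KSR2 and TX 2i ESCs lay above all MEF libraries and the other 3 lines overlapped them. The difference was -0.06 ± 0.49 (SE; adjusted p = 0.911).

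Taking each pluripotent group against MEFs, comparisons that all share the 3 MEF libraries, 24 of the 40 pairs of a member and a group were called, 22 lower and 2 higher. F KSR2 had 4 members called, F KSR4 had 5, M KSR3 had 4, M KSR5 had 4 and TX 2i ESCs had 7, against, in this order, 67.0%, 65.8%, 67.6%, 67.9% and 66.5% of all genes, shares above those of the members in all groups but TX 2i ESCs. In M KSR3, 5759 genes were called higher and 4130 lower, or 4658 and 5014 after centring. Fosl1, Fosl2, Jun and Junb fell in all 5 groups. The smallest of these falls was that of Junb in M KSR5, -1.14 ± 0.37 (SE; adjusted p = 0.0114), and the largest that of Fosl2 in TX 2i ESCs, -7.28 ± 0.86 (SE; adjusted p = 9.84e-07). Fos and Fosb fell in TX 2i ESCs, by 2.96 (adjusted p = 0.00179) and by 5.97 (adjusted p = 5.23e-05) on the log2 scale, and passed in none of the 4 KSR-iPSC lines. Jund rose in F KSR4 (0.67, adjusted p = 0.0279) and in TX 2i ESCs (0.83, adjusted p = 0.00871), and neither call held after centring. Of the allelic reads of chromosome 8, where Jund lies, 62.8% were maternal in F KSR4, 54.7% in TX 2i ESCs and 51.6% in MEFs. Whether the copy number of this chromosome bears on the level of Jund was not tested. Without MEF replicate 1, F KSR4 replicate 2 and M KSR5 replicate 3, 33 of the 40 pairs were called, and Fos then passed in each of the 5 groups. Of the 13973 genes tested in that fit, the calls per group ran from 8839 for F KSR4 to 9340 for M KSR3. MEF replicate 1 and M KSR5 replicate 3 were left out because of their AP-1 values. Since MEF replicate 1 held the lowest Fos of the MEFs, at 2.14, leaving it out raised the MEF mean of Fos. These calls of Fos are therefore not independent of that choice.

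**Figure D2:**
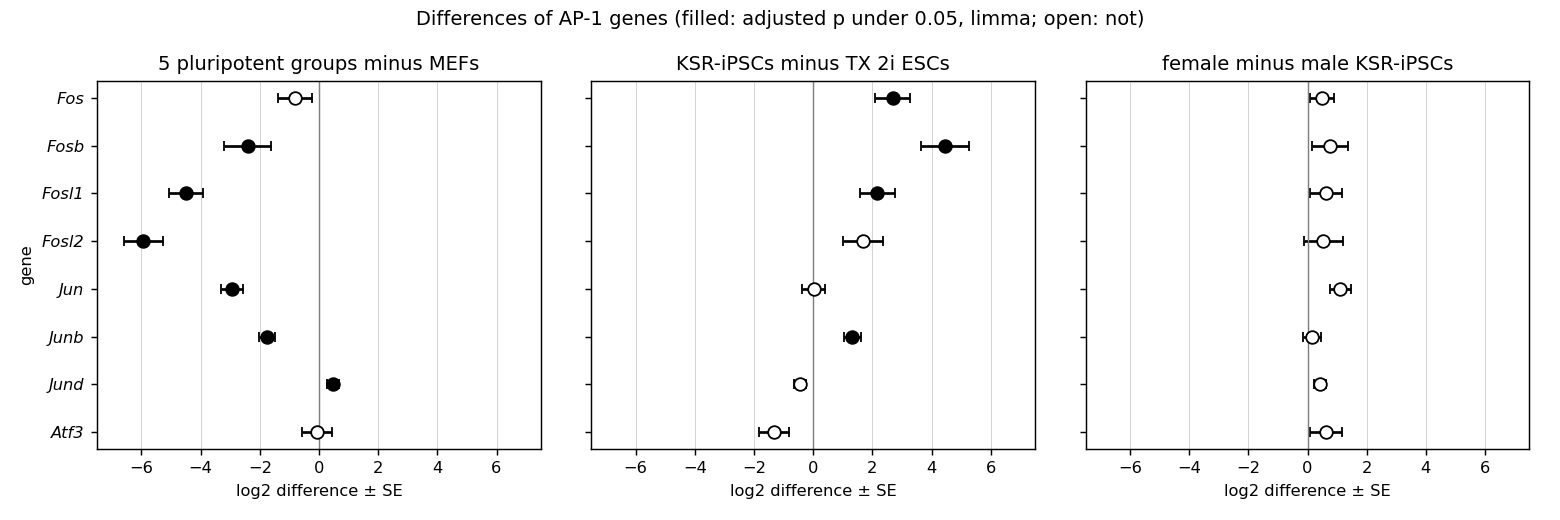
Log2 difference ± SE (x axis) of each member (rows) in 3 panels, pluripotent groups minus MEFs, KSR-iPSCs minus TX 2i ESCs and female minus male KSR-iPSCs; filled points passed an adjusted p of 0.05 (limma). Fosl2 had the largest difference from MEFs, -5.93, 4 members were higher in KSR-iPSCs than in TX 2i ESCs, and no member passed between the sexes.

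In the 4 KSR-iPSC lines together, 4 of the 8 members were called against TX 2i ESCs, all 4 of them higher, where 23.0% of all genes were called, 1615 higher and 1757 lower. The median difference of the members was 1.50, that of all genes tested was -0.0045. Of these 4, Fos, Fosl1 and Junb did not overlap between the 12 KSR-iPSC and 3 TX 2i ESC libraries, where 10.2% of all genes tested did not. Fos ranged from 2.29 to 4.97 in KSR-iPSCs with a median of 3.77, and its difference was 2.68 ± 0.58 (SE; adjusted p = 0.00293), a 6.41-fold higher level. Junb ranged from 4.14 to 6.31 with a median of 5.20 and was higher by 1.32 ± 0.29 (SE; adjusted p = 0.00323).

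Fosl1 ranged from -0.27 to 2.77 in KSR-iPSCs and was higher by 2.16 ± 0.59 (SE; adjusted p = 0.0132), though TX 2i ESCs had at most 9 reads per library and the difference missed the threshold with 1 added before the logarithm (1.11, adjusted p = 0.0533) and in limma-voom on the recovered reads (2.14, adjusted p = 0.102). Fosb was higher by 4.45 ± 0.80 (SE; adjusted p = 0.000692), a value that depends on the library without reads and was 1.67 (adjusted p = 0.0177) with 1 added. For Fosb the lowest KSR-iPSC and the highest TX 2i ESC library, both at -0.99 with 9 reads, touched. Fosl2 showed 1.68 ± 0.68 (SE; adjusted p = 0.087), Jun 0.02 ± 0.38 (SE; adjusted p = 0.984), Jund -0.43 ± 0.20 (SE; adjusted p = 0.135) and Atf3 -1.32 ± 0.50 (SE; adjusted p = 0.0686). Without the 3 libraries that stand apart, Atf3 and Jund were lower in KSR-iPSCs, with differences of -1.69 (adjusted p = 0.00071) and -0.58 (adjusted p = 0.0024).

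The make-up of the family was compared per kb of RefSeq exons, since levels of different genes are comparable only per length. In MEFs, Jund took 26.1% ± 7.6 (SD, n = 3) of the summed RPM per kb of the 8 genes, Junb 25.7% ± 3.2, Jun 20.3% ± 2.2, Fosl2 12.9% ± 3.0, Fosl1 8.3% ± 2.3, Fos 4.4% ± 2.8, Atf3 1.4% ± 0.15 and Fosb 0.89% ± 0.38. Within each of the 3 MEF libraries Fosl1 lay above Fos and Junb above Jun, while the place of Jund among the leading genes changed from library to library. With GENCODE lengths the order of Junb and Jun changed between the libraries instead, and Jund was the first in all 3. In the pluripotent libraries Jund was the first of the 8 in 15 of 15 and took 50.0 to 83.3%. TX 2i ESCs had the most even picture between replicates, with Jund at 82.0% ± 1.1, Junb at 6.7% ± 0.81, Atf3 at 5.3% ± 0.93, Jun at 4.8% ± 0.89, Fos at 0.84% ± 0.19 and the other 3 below 0.21% each. Atf3 and Jun could not be ordered there.

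With GENCODE M21 exon lengths, in which Jund is shorter than in RefSeq, its share was 67.3 to 90.6% in the pluripotent libraries and it also led in all 3 MEF libraries, whereas with RefSeq lengths it led in 1 of them. The 8 genes summed to 239.6 ± 54.6 RPM per kb in MEFs (SD, n = 3). The sum was 139 ± 22.9 for F KSR2, 150.4 ± 62.9 for F KSR4, 101 ± 8.07 for M KSR3, 116 ± 49.2 for M KSR5 and 129 ± 5.85 for TX 2i ESCs. F KSR4 libraries overlapped those of MEFs, since they reached 219 and the lowest MEF library stood at 178.

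**Figure D3:**
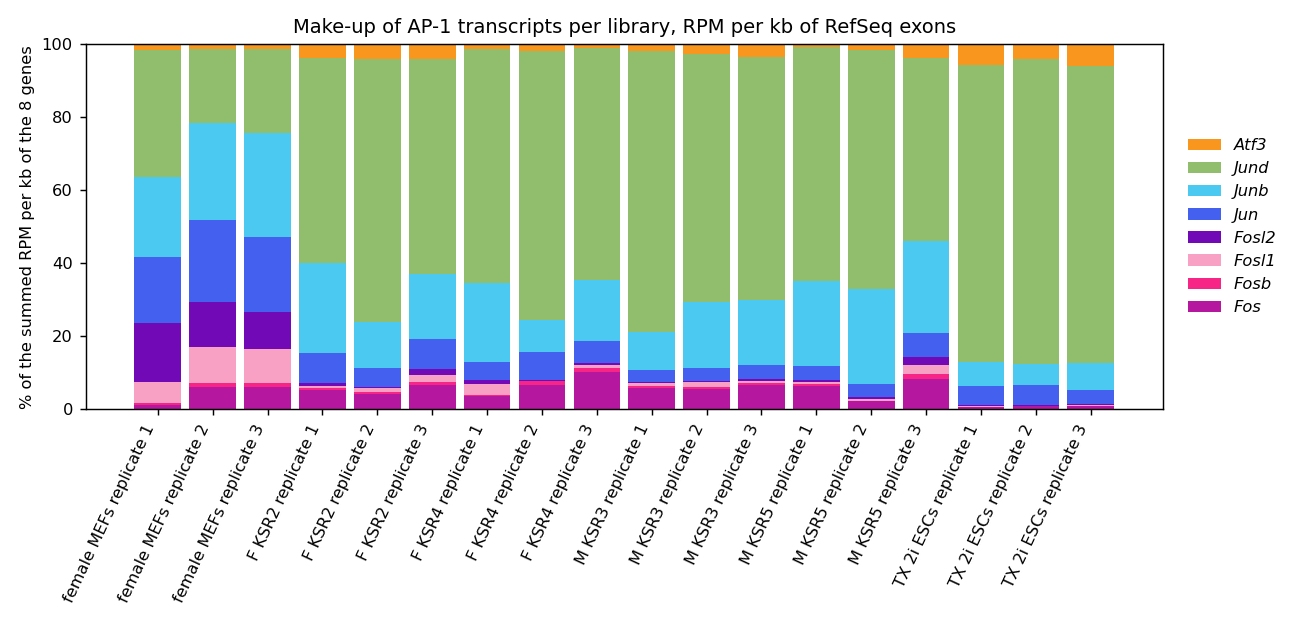
Share of each of the 8 genes (y axis, % of their summed RPM per kb of RefSeq exons) in the 18 libraries (x axis). Jund takes 20.4 to 34.7% in the MEF libraries and 50.0 to 83.3% in the pluripotent ones, and the shares of Fosl2 and Fosl1 are larger in the MEF libraries than in any other.

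Between the 6 female and 6 male KSR-iPSC libraries, 0 of the 8 members were called by limma, against 2.87% of the 13609 genes tested (216 higher and 174 lower in female lines, 283 and 114 after centring), and 1 of the 8, Jun, had an unadjusted p under 0.05, as had 18.5% of all genes. Jun ranged from 3.89 to 5.75 with a median of 5.02 in female libraries and from 3.21 to 5.20 with a median of 3.59 in male ones. The groups overlapped through M KSR5 replicate 3, and the difference was 1.11 ± 0.36 (SE; adjusted p = 0.106). Without that library the difference was 1.40 (adjusted p = 0.0209). In a fit of all 18 libraries Jun passed too (adjusted p = 0.0482), and with line as a random effect or with line means no member did. The other 7 members had differences between 0.15 for Junb and 0.75 for Fosb.

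Among the 4 KSR-iPSC lines, 0 of the 8 members were called in limma's F test against 14.1% of all genes called. Jun alone had an unadjusted p under 0.05, as had 31.7% of all genes. Jun had the smallest adjusted p, 0.114, and group means of 4.96 ± 0.65 (SD, n = 3) for F KSR2, 4.79 ± 0.93 for F KSR4, 3.52 ± 0.23 for M KSR3 and 4.00 ± 1.05 for M KSR5. Atf3 followed with an adjusted p of 0.212. Without M KSR5 replicate 3, which held the highest Jun and Atf3 of its line, Jun (adjusted p = 0.0247) and Atf3 (adjusted p = 0.0182) passed. In that fit 2323 of the 14607 genes tested were called.

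The spread between replicates differed among the members. Jund had an SD below that of the median gene in 4 of the 6 groups, from 0.02 in M KSR3 to 0.15 in MEFs. The same held for Fosl2 in MEFs, Junb in F KSR4 and TX 2i ESCs, and Fosb in M KSR3. It also held for Atf3 in F KSR2 and, by a narrow margin, for Fos in M KSR3 and Atf3 in MEFs. In M KSR5 the SD of Fosb was 2.21, of Fosl2 2.00 and of Atf3 1.78, where the median gene had 0.28. All 8 members were highest of the 3 in M KSR5 replicate 3, where 41.4% of all genes tested were. There Fos stood at 120% and Fosb at 122% of the MEF mean in RPM, or at 85.3% and 92.4% of the mean of MEF replicates 2 and 3. Atf3 stood at 191% of the MEF mean (177% without MEF replicate 1), Jun at 23.5% and Fosl2 at 11.8%, beside 0.615% for the median fibroblast marker. Levels near or above the MEF mean were not particular to that library, since Fos stood at 127% and 118% in F KSR4 replicates 2 and 3, and Atf3 at 138 to 179% in F KSR2 and at 157 to 225% in TX 2i ESCs.

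In MEF replicate 1, 6 of the 8 members were lowest of the 3 libraries, where 31.2% of all genes were. The same library held the lowest value of 23 of 30 immediate early and stress response genes, with a median of -0.93 against the mean of the other two, and of 18 of 24 known AP-1 targets. Egr1, the serum-induced zinc finger factor, stood at 6.37, 7.86 and 7.86 in the 3 MEF libraries, so it too was lowest in replicate 1. F KSR2 replicate 2 held the lowest value of 7 of the 8 members, against 30.4% of all genes. What sets these libraries apart from their replicates was not tested.

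**Figure D4:**
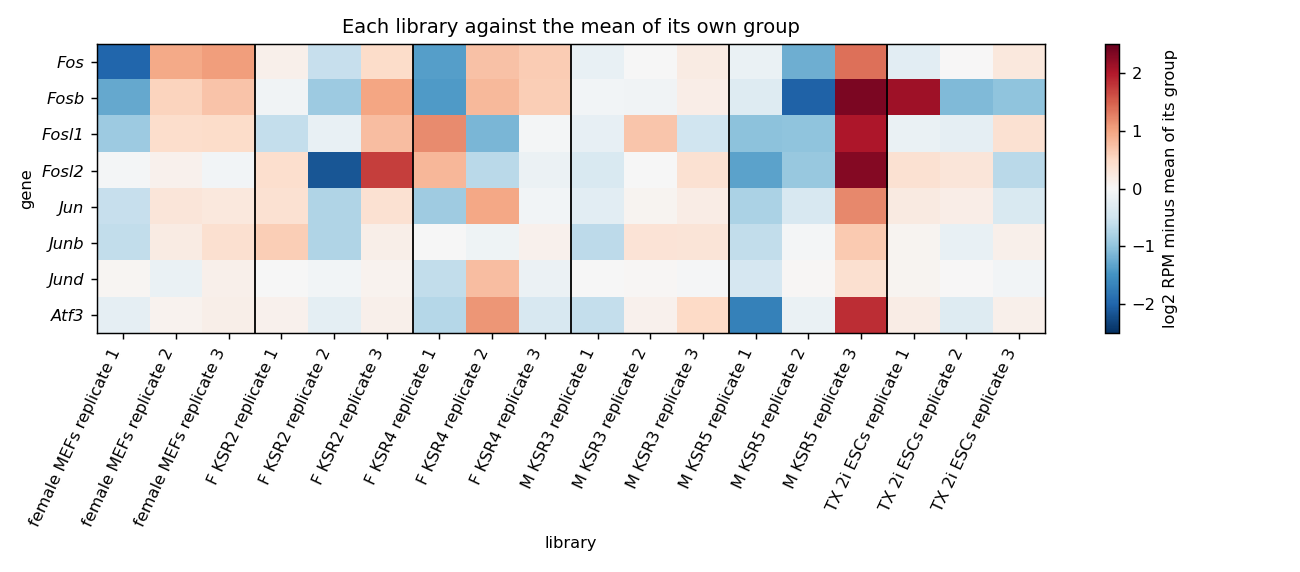
Log2 RPM of each member (rows) in each library (columns) minus the mean of its group; red is above and blue below that mean. All 8 members are above it in M KSR5 replicate 3, and within MEF replicate 1 the members farthest below it are Fos, Fosb and Fosl1.

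The other genes of the pathway were described from 4 lists. Among 14 tested partners and related bZIP genes, 9 were lower and 4 higher in pluripotent cells than in MEFs, with a median of -0.77 against 0.21 for all genes. Maf, a large Maf protein that pairs with AP-1 members, fell by 7.86 ± 0.75 (SE; adjusted p = 4.34e-08). Jdp2, which represses AP-1 as a Jun partner, fell by 2.19 ± 0.38 (SE; adjusted p = 5.4e-05), and Atf2, a stress kinase target that pairs with Jun, rose by 0.60 ± 0.10 (SE; adjusted p = 3.67e-05). Mafa rose by 4.15 ± 0.53 (SE), from at most 6 reads in an MEF library. Between KSR-iPSCs and TX 2i ESCs, 4 were higher and none was called lower.

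Among 21 kinases and factors upstream of AP-1, 10 rose and 6 fell relative to MEFs, with a median of 0.0032. Rps6ka1, an ERK-activated kinase, rose by 3.51 ± 0.10 (SE; adjusted p = 4.01e-15), Map3k1, at the head of the JNK cascade, by 1.37 ± 0.19 and the Jun kinase gene Mapk8 by 0.76 ± 0.14. Of the 3 ternary complex factors that sit with serum response factor on immediate early promoters, Elk3 fell by 3.19 ± 0.22 and Elk4 by 1.76 ± 0.20, whereas Elk1 rose by 0.49 ± 0.13 (SE; adjusted p = 0.00259). The serum response cofactor Mkl1 fell by 1.45 ± 0.23. Against TX 2i ESCs, KSR-iPSCs had 2 of the 21 higher and 5 lower. Elk4 (0.79 ± 0.20) and the neuronal JNK gene Mapk10 (3.07 ± 0.63, at most 26 reads per library) were higher, and Rps6ka3 (-0.89 ± 0.16), Elk1 (-0.82 ± 0.13) and Map2k1, which encodes the MEK inhibited in 2i (-0.46 ± 0.15), were lower.

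Among 30 immediate early and stress response genes, 17 fell and 7 rose relative to MEFs, with a median of -1.26. The growth-induced matrix gene Ctgf fell by 4.42 ± 0.43 (SE), the nuclear receptor gene Nr4a3 by 4.67 ± 0.58 and Ier5 by 3.84 ± 0.27, while the kinase gene Sik1 rose by 3.01 ± 0.18, Klf2, also a pluripotency factor, by 2.59 ± 0.27 and Ier2 by 1.53 ± 0.24. In KSR-iPSCs, 6 of the 30 were higher than in TX 2i ESCs and 1 was lower. Egr1 was higher by 5.77 ± 0.55 (SE; adjusted p = 1.84e-06), the largest difference of the list, and the mRNA decay factor Zfp36 by 1.85 ± 0.25 and the stress gene Gadd45a by 1.75 ± 0.16. Fos and Egr1, both known to be induced through MEK and ERK, had their lowest group mean in TX 2i ESCs, grown with a MEK inhibitor. Their medium also held serum, which that of the KSR-iPSCs did not, and inhibitor, serum, cell line and any feeder cells cannot be told apart.

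Among 24 tested genes listed as AP-1 targets of fibroblasts, 23 fell and none rose relative to MEFs, with a median of -5.15. The list holds Fosl1 itself and Mmp2, which is also among the fibroblast markers. The matrix gene Tnc fell by 11.3 ± 1.28 (SE), the collagenase gene Mmp13, with at most 3 reads in a pluripotent library, by 8.94 ± 0.42 and the hyaluronan receptor gene Cd44 by 8.87 ± 0.72. The 15 fibroblast markers fell with a median of -9.41, so targets and markers of the cell type moved together, and the part of AP-1 in these falls was not tested. Against TX 2i ESCs, KSR-iPSCs had 9 targets higher and 2 lower with a median of 0.31; Mmp9 was higher by 3.16 ± 0.55, the fibronectin receptor gene Itga5 by 1.71 ± 0.20, and Spp1 was lower, by -1.38 ± 0.30. Of the 15 fibroblast markers, 6 were higher there and 1, Thy1, was lower (-1.57 ± 0.26 SE, adjusted p = 0.0004). Markers of early differentiated cells were higher in 5 of 8 cases. The part of these markers, or of any feeder cells, in the higher AP-1 levels of KSR-iPSCs was not tested. The summed level of the 8 markers of early differentiated cells was 29.8 to 112 RPM in KSR-iPSCs and 16.8 to 17.4 RPM in TX 2i ESCs.

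**Figure D5:**
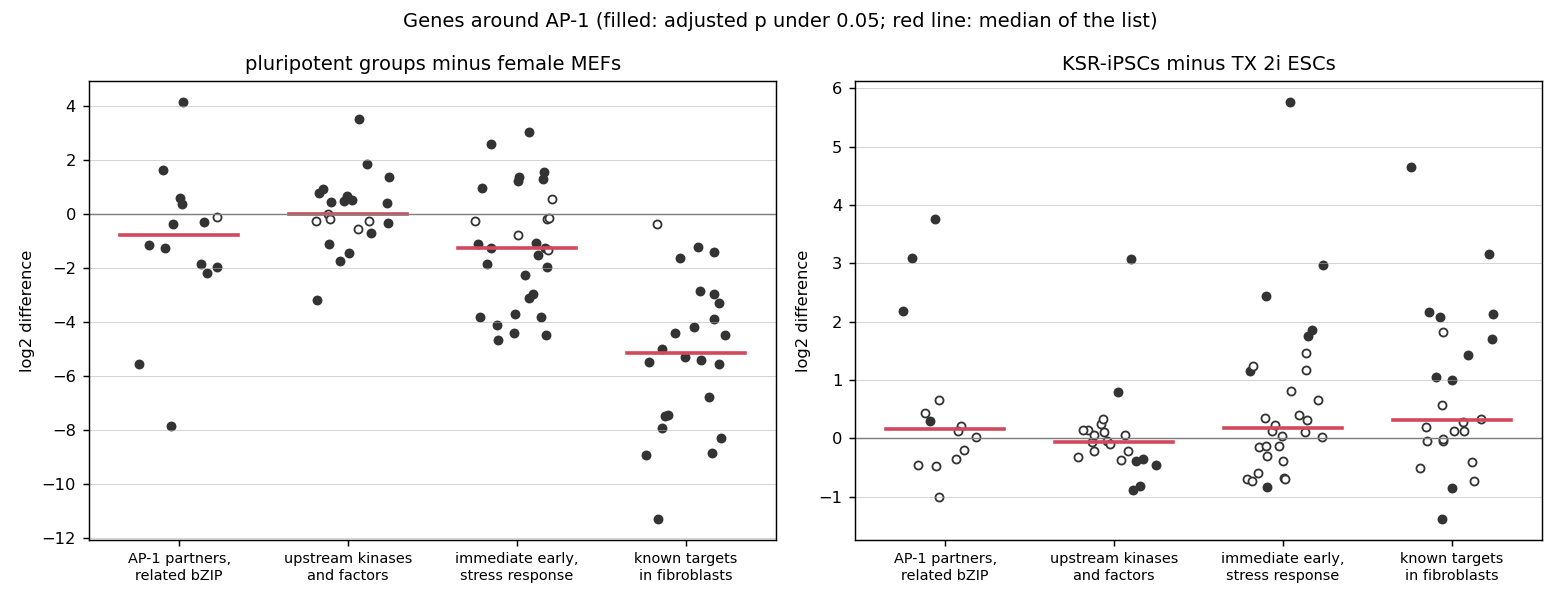
Log2 difference (y axis) of each tested gene of the 4 lists around AP-1 (x axis), for pluripotent groups minus MEFs (left) and for KSR-iPSCs minus TX 2i ESCs (right); filled points passed an adjusted p of 0.05 and red lines are list medians. Targets of fibroblasts lie lowest against MEFs, with a median of -5.15, and Egr1 lies highest against TX 2i ESCs, at 5.77.

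By the root mean square (RMS) difference of the 6 centred group means, the genes most like a member were Prlr (0.18) and Fah (0.26) for Fos, Vgf (0.26) and Maob (0.53) for Fosb, Tmtc2 (0.30) and F3 (0.32) for Fosl1, and Slc1a6 (0.29) and Dchs1 (0.31) for Fosl2. They were Hist3h2a (0.092) and Trim17 (0.11) for Jun, Vav3 (0.12) and Cpeb1 (0.16) for Junb, D930014E17Rik (0.093) and Tmx2 (0.10) for Jund, and Cmtm7 (0.23) for Atf3. No member was among the 2 nearest genes of another. The closest pairs of members were Fosl1 with Fosl2 and Jund with Atf3, each with an RMS difference of 0.62.

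The hybrid cells also gave the parental share of members, as the percentage of BL6 (maternal) reads among allelic reads. In MEFs the means were between 43.1% ± 14.9 (SD, n = 3) for Fosb and 63.9% ± 12.1 for Atf3, with the 4 deepest, Fosl2 (53.8% ± 2.9), Jun (50.3% ± 2.1), Junb (48.8% ± 1.9) and Jund (51.6% ± 3.0), near equality. Fos stood at 52.0% ± 3.4 in MEFs and, by line, at 56.6% ± 8.0 for F KSR2, 57.5% ± 1.6 for F KSR4, 58% ± 2.4 for M KSR3 and 59.9% ± 4.0 for M KSR5, and the libraries of each line overlapped those of MEFs.

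Junb and Jund lie on the same chromosome and had different shares in TX 2i ESCs. Junb stood at 31.0% ± 4.7 there, with 36 to 47 allelic reads per library, below all MEF libraries, while Jund stood at 53.0% ± 3.3 and all reads of chromosome 8 at 54.7%. Junb also lay below the chromosome in F KSR2 (37.9% ± 1.6 against 51.0%) and F KSR4 (51.0% ± 9.4 against 62.8%). The same held in M KSR3 (58.8% ± 4.5 against 65.3%) and M KSR5 (40.7% ± 8.1 against 50.3%). In MEFs Junb stood at 48.8% ± 1.9 against 51.6%. Jund stood at 62.4% ± 0.17 in M KSR3, near the chromosome, as in F KSR4 (60.7% ± 8.4). In M KSR5 Jund lay below it, at 42.2% ± 3.2. Atf3 lay near its chromosome 1 in M KSR3, at 65.8% ± 2.3 against 68.0%, and below it in F KSR2 (40.2% ± 6.0 against 51.8%), F KSR4 (36.7% ± 9.9 against 52.0%) and TX 2i ESCs (33.1% ± 9.7 against 51.5%, with 61 to 70 allelic reads per library). Jun lay near its chromosome 4 in TX 2i ESCs, at 30.3% ± 10.6 against 32.4%, and above it in M KSR5, at 66.3% ± 6.1 against 53.1%. No test was made of these shares, which cover few reads. Chromosome 8 stood at 62.8% in F KSR4 and 65.3% in M KSR3 against 51.6% in MEFs. Chromosome 1 stood at 68.0% in M KSR3 against 50.9% in MEFs. Whether copy number of these chromosomes bears on the levels of Jund, Junb and Atf3 was not tested.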

How the data were processed

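RNA-seq covered 18 libraries, 3 biological replicates in each of 6 groups, grouped here by the sample titles. The authors trimmed strand-specific polyA reads with Trim Galore 0.6.1, mapped them to GRCm38 with HISAT2 2.1.0 and counted them on genes in SeqMonk, and they deposited log2 values of 25965 genes, with further columns for reads assigned to the BL6 and the CAST allele. The study's text speaks of log2 RPKM. In the deposited values, however, 1 read is worth the same for every gene of a library whatever its length, so they are given here as log2 RPM without length correction. A further 18 columns were not used. Reads were recovered from the steps of the values, and 99.98 to 100% of values came within 0.05 of a whole read. Counting error adds to the spread between replicates in genes with few reads.

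Groups were compared with limma 3.58.1 in R 4.3.3 on the log2 values, with an intensity trend, for genes above 0 in at least 3 libraries. The 18 libraries shared 1 fit with a mean per group. The 12 KSR-iPSC libraries had another for sex, with a mean per sex and none per line. P-values were two-sided and adjusted after Benjamini and Hochberg over all genes tested, with a threshold of 0.05. The fits were tested on simulated data. The authors compared the sexes with edgeR and an intensity filter, and no column of their own comparisons was used. Allelic shares needed at least 5 allelic reads per library. Exon lengths came from RefSeq or GENCODE M21.

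The members and gene lists were chosen with earlier results of these data known. Besides the members, the text names from each list and comparison at most 3 genes per direction, those with the largest change among genes past the threshold with no overlap between the libraries of both sides, and the 2 genes most like each member; Egr1 in MEFs and Elk1 against MEFs were chosen after their values were seen. Some genes that this rule names are not reported here. Alternatives were 1 added before the logarithm, no filter, centring on the median of 8354 genes, limma-voom on recovered reads, array weights, a replicate block, only the groups compared, each library left out in turn and, for sex, all 18 libraries, line as a random effect and line means. Leaving out MEF replicate 1, F KSR4 replicate 2 and M KSR5 replicate 3 together was added after seeing the data, the first and the last of them for their AP-1 values.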

Additional observations from a re-analysis of the deposited data

Results flagged for a closer look

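Dixon's test at the 95% level was applied to the 6 female and the 6 male KSR-iPSC libraries for each of the 8 members, 16 groups in all, of which chance flags about 1 in 20. A pair of values lay apart from the others. Fosl2 stood at 4.37 in M KSR5 replicate 3, 2.90 above the next male library (ratio of gap to range 0.79). Jun stood at 5.20 in the same library, 1.50 above the next (ratio 0.753).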

How the results depend on the processing

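Of 584 values of single members under the alternatives, 556 kept their side of the threshold, 11 lost a call, 17 gained one and 0 reversed a called direction. Fosl2, Fosl1, Jun and Junb were called lower than in MEFs in 25 of 25 alternatives, and Fos, Fosb and Junb were called higher than in TX 2i ESCs in 26 of 26. Of the 6 members called against MEFs, 5 to 7 were called under other settings, 7 without the 3 libraries that stand apart, and 4 to 6 when single libraries were left out. The 24 called pairs became 22 to 30 under other settings, 33 without the 3 libraries and 23 to 26 when single libraries were left out. Against TX 2i ESCs, 4 became 3 to 6 when single libraries were left out: Fosl1 was lost without TX 2i ESC replicate 1 (adjusted p = 0.0601) or 2 (adjusted p = 0.0653), Fosl2 was gained without F KSR2 replicate 2 (adjusted p = 0.0223), Atf3 (adjusted p = 0.0283) and Jund (adjusted p = 0.00889) without F KSR4 replicate 2, and Atf3 without M KSR5 replicate 3 (adjusted p = 0.00727). Between the sexes, 0 became 1, Jun, with array weights, with all 18 libraries in the fit and without the 3 libraries, and 0 to 1 when single libraries were left out (M KSR5 replicate 3). Among the lines, 0 became 2 with array weights (Jun and Atf3), 3 without the 3 libraries (Jun, Atf3 and Fosl1) and 0 to 2 when single libraries were left out, namely without F KSR4 replicate 1 (Jun and Jund) and without M KSR5 replicate 3 (Jun and Atf3). The cause was not tested. For the comparison of all pluripotent groups with MEFs, a fit of only the groups compared is the same fit.

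Over all genes, 390 called between the sexes became 232 without a filter, 3275 with array weights, 1523 with all 18 libraries, 138 with line as a random effect, 4 with line means and 665 without the 3 libraries. The 2070 called among the lines became 5771 with array weights, 1036 in a fit of only the lines and 3218 without the 3 libraries. They became 3947 without F KSR4 replicate 1 and 2323 without M KSR5 replicate 3. The deviations of same-numbered libraries had a median correlation of 0.039, against -0.01 for other pairs. Of 45 same-numbered pairs 13 were over 0.1, and of 90 other pairs 12 were. The numbers were not treated as pairs, although 13 of 18 libraries correlated best with a library of their own number. That is a hint from the data and not from the design. With the replicate block, 6 members were called against MEFs, 24 of the 40 pairs, 4 against TX 2i ESCs, 0 between the sexes and 0 among the lines. Depth limits Fosb and Fosl1 in TX 2i ESCs, with at most 9 reads per library.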
